A study of Mus musculus with 17 samples.

Results

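The genes described here are 10 mouse genes of NAD metabolism, namely the sirtuins Sirt1, Sirt3, Sirt5, Sirt6 and Sirt7, the NAD synthesis enzymes Nampt, Nadsyn1, Qprt and Haao, and the NAD glycohydrolase Cd38. They were taken by name and matched to the gene identifiers of the count files, and all 10 were found among the 53313 identifiers that the files of all 17 libraries share. RNA sequencing was done on primary tubular epithelial cells (PTEC) in culture and on whole kidney. All samples were wild type, and the labels give the strain as C57BL/6Rj, where the study's methods write C57BL/6JRj. Non-senescent (ns) PTEC were collected on day 6 without irradiation (n = 4), and senescent (sen) PTEC on day 16 after 10 Gy of γ-irradiation at confluence (n = 4). Whole kidneys came from mice of 3, 12 and 24 months without treatment (n = 3 each), and the study's methods state that these mice were male and that one part of the right kidney was used. No library of unirradiated PTEC at day 16 was analysed here, so irradiation and time in culture cannot be told apart. Nothing in the labels says whether PTEC replicates came from separate animals, so the p-values measure the spread between these libraries.

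NAD carries electrons in oxidation reactions and is also used up as a substrate. Sirtuins consume it to remove acetyl and other acyl groups from proteins, and CD38 on the cell surface splits it to nicotinamide and ADP-ribose products. Cells rebuild it from nicotinamide through NAMPT, the rate-limiting step of salvage, or make it de novo from tryptophan, in which HAAO and QPRT act in sequence and NADSYN1 adds the closing amide. The proximal tubule of the kidney, which is rich in mitochondria, is known as a site of de novo NAD synthesis.

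Levels are given as CPM, the count per 1000000 counts of the library, scaled by the trimmed mean of M values (TMM) over all 17 libraries. A gene was called up- or down-regulated at an adjusted p (edgeR quasi-likelihood test, Benjamini-Hochberg over all genes tested) under 0.05 and an absolute log2 fold change over 0.5. Total counts were 26963442 to 35409144 per PTEC library and 37311247 to 66894790 per kidney, and they rose with age, from at most 49471409 at 3 months to at least 62761670 at 24 months. Proximal tubule markers were low in the PTEC libraries: 12 marker genes of that segment summed to 98.8 to 569 CPM in ns PTEC and 122 to 268 CPM in sen PTEC, against 16884 to 29863 CPM in kidney. In ns replicate 4, where the sum was 569 CPM, 426 CPM came from Lrp2. Slc34a1, the proximal phosphate carrier, was at 0.371, 0.156, 10.7 and 17.7 CPM in the ns cultures and at most 0.052 CPM in the sen cultures, while Lrp2, the endocytic receptor megalin, was detected in every culture at 52.0 CPM or more.

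Sirt1, Nampt, Haao and Cd38 are shown with the 300 bases around their RefSeq start (250 before and 50 after it, build GRCm38.p6), because they stand for the roles among the genes called: Sirt1, the 1 sirtuin called in senescent PTEC, Nampt, the salvage enzyme that fell there, Cd38, which rose there, and Haao, found in kidney and not above 3 counts in any culture. Each sequence reads 5′ to 3′ on the gene's own strand, and capitals mark CpG dinucleotides. They lie at chr10:63338986-63339285 on the minus strand (Sirt1), chr12:32820085-32820384 on the plus strand (Nampt), chr17:83846741-83847040 on the minus strand (Haao) and chr5:43868559-43868858 on the plus strand (Cd38).
Sirt1: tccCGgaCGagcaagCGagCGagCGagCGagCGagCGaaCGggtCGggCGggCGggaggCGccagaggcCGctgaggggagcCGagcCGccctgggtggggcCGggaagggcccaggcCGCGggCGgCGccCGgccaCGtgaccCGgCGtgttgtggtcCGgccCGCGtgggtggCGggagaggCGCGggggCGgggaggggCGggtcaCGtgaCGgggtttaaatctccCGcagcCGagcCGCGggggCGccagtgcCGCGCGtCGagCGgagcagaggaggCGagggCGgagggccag
Nampt: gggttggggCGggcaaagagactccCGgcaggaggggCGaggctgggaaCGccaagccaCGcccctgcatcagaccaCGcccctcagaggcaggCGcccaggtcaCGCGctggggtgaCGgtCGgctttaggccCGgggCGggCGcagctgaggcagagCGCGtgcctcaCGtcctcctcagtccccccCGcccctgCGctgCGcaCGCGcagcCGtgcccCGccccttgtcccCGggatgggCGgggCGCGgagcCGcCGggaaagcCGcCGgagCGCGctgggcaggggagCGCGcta
Haao: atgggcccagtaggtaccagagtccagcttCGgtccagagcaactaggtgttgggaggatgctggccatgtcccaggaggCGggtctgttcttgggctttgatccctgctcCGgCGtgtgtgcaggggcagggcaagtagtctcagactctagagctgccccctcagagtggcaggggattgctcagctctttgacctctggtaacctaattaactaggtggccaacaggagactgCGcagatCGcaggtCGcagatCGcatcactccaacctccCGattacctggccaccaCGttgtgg
Cd38: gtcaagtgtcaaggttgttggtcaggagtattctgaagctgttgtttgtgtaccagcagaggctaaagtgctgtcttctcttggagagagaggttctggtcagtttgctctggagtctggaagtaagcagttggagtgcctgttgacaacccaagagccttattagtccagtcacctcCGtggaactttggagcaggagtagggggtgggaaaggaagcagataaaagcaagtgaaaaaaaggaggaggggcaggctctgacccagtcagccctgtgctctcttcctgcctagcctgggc
The windows ranged from 47 CpG in Sirt1 and 36 in Nampt to 10 in Haao and 1 in Cd38, against a median of 7 over 32851 promoters. Sirt1 held 2 copies of the E-box CACGTG (both strands searched), a motif found in 7.15% of promoters, and 7 copies of the GC box GGGCGG, found in 35.7%. Nampt held 5 GC boxes, and Haao held 1 copy of GTTAAT, a half-site of the tubular factor HNF1, found in 7.10% of promoters. These matches are a description of the letters in the windows and were not related to binding or expression.

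In senescent PTEC, the 3 NAD synthesis enzymes that could be tested were lower and Cd38 was higher. Of the 10 genes, 9 had enough reads to be tested, and 4 were down-regulated (Sirt1, Nampt, Nadsyn1 and Qprt) and 1 up-regulated (Cd38). Of all 15434 genes tested, 39.8% were called in this comparison, 20.1% up and 19.7% down, so that 5 of 9 is a count over a high background. The groups did not overlap for the 5 called genes, as for 42.0% of all genes, and the median log2 fold change over the 9 genes was -0.33, against 0.00 over all genes.

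Nampt, the salvage enzyme, was at 98.5, 94.3, 99.1 and 124 CPM in the ns cultures and at 56.5, 55.4, 37.5 and 35.4 CPM in the sen cultures. Every sen culture was below every ns culture, and replicates 3 and 4 were the lowest. This gave a log2 fold change of -1.15 (SE 0.19, edgeR adjusted p = 0.00103, lower in 4 of 4 pairs).

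Nadsyn1, which turns nicotinic acid adenine dinucleotide into NAD and so serves both the de novo route and the route from nicotinic acid, was at 7.93, 7.10, 13.0 and 11.5 CPM in ns and 4.78, 4.19, 6.26 and 4.62 CPM in sen PTEC. All sen values lay under the lowest ns value. It fell by 0.97 on the log2 scale (SE 0.24, edgeR adjusted p = 0.00865).

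Qprt, which makes nicotinic acid mononucleotide from quinolinic acid, had the largest fold change of the 9 genes and the least certain one. It was at 1.09, 1.22, 5.17 and 6.62 CPM in ns and 0.228, 0.130, 1.07 and 0.882 CPM in sen PTEC, so the highest sen culture stood just under the lowest ns culture. Its log2 fold change was -2.57 (SE 0.77, 95% interval -4.30 to -0.84, edgeR adjusted p = 0.0227). With edgeR the adjusted p was 0.0646 without ns replicate 4 (log2 fold change -2.07) and 0.0625 without sen replicate 1 (-2.30). It was 0.0556 without the filter on low counts (-2.58) and 0.000107 with the replicate number as a block (-2.59). The 2 ns cultures with more Qprt, replicates 3 and 4, also had higher levels than replicates 1 and 2 for 8 of the 12 proximal tubule markers, but not for Lrp2, and the sum of the 12 markers was 98.8, 117, 122 and 569 CPM over ns replicates 1 to 4. Slc27a2, a fatty acid transporter of the proximal tubule, was at 4.79, 4.13, 24.1 and 44.8 CPM in the same order and at 0.208 to 3.01 CPM in sen PTEC. The part of tubule cell content in the Qprt difference was not tested, and in bulk RNA fewer cells of a type and less RNA per cell cannot be told apart.

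Haao, the dioxygenase that forms quinolinic acid, had 0 to 3 counts per ns culture and 0 to 2 per sen culture, and was too low to test.

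Cd38 was at 4.60, 6.29, 1.96 and 2.77 CPM in ns PTEC and at 9.61, 9.94, 8.78 and 9.30 CPM in sen PTEC. The 4 sen cultures were close together and all above the ns cultures, which spread over a wider range. Cd38 thus rose by 1.29 on the log2 scale (SE 0.32, edgeR adjusted p = 0.00977, higher in 4 of 4 pairs), or 2.44-fold. CD38 is best known from leukocytes. The 7 general leukocyte markers summed to 22.9 to 39.1 CPM in ns and 12.3 to 30.7 CPM in sen PTEC. Of the 6 tested, 4 were down-regulated, where 19.7% of all genes were, and 2 had positive log2 fold changes, up to 0.23. Macrophage markers summed to 43.7 to 66.0 and 24.4 to 71.7 CPM. Of these 7 markers, 1 was down-regulated (Cd68) and 2 had positive log2 fold changes, up to 0.78. Markers of T and NK cells, of B and plasma cells and of neutrophils summed to at most 0.364, 0.599 and 0.286 CPM in any culture, although the sum for B and plasma cells was lower in ns (0.0247 to 0.187 CPM) than in sen PTEC (0.374 to 0.599 CPM). Markers of fibroblasts and pericytes summed to 8.03 to 53.0 CPM in ns and 52.0 to 203 CPM in sen PTEC. The part of any of these cell types in the Cd38 difference was not tested.

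**Figure D1:**
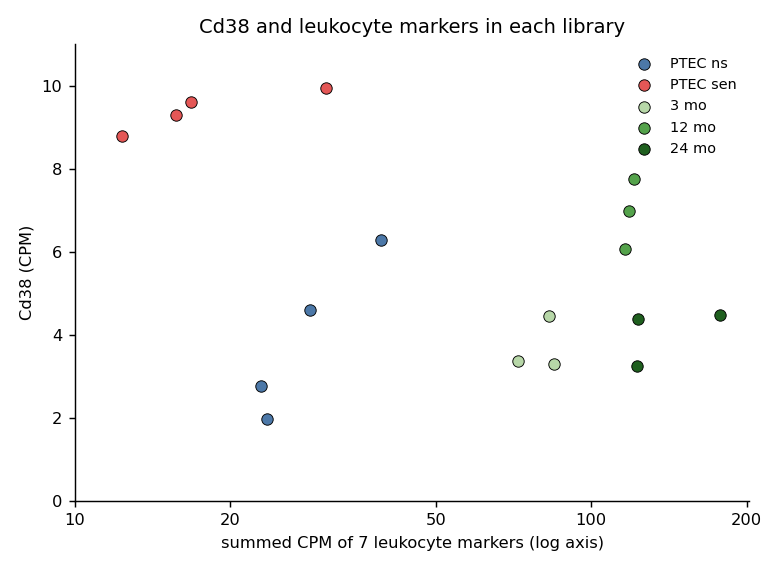
Cd38 level (vertical axis, CPM) against the summed level of 7 leukocyte markers (horizontal log axis, CPM) in each of the 17 libraries, coloured by group. The 4 senescent cultures hold the highest Cd38 levels, 8.78 to 9.94 CPM, at leukocyte marker sums of 12.3 to 30.7 CPM, and the 12-month kidneys lie above the kidneys of the other ages.

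Of the sirtuins, Sirt1 alone passed the test in senescent PTEC. Sirt1, a nuclear deacetylase, was at 27.6, 25.2, 17.8 and 22.0 CPM in ns and 14.4, 17.4, 13.1 and 14.0 CPM in sen PTEC. The groups were separated by a small gap between 17.4 and 17.8 CPM. It fell by 0.63 on the log2 scale (SE 0.17, edgeR adjusted p = 0.0132).

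The other sirtuins did not pass. Sirt7, a nucleolar deacetylase, had a log2 fold change of -0.33 (95% interval -0.77 to 0.10) and was lower in sen PTEC in 4 of 4 pairs. Sirt5, which removes succinyl and malonyl groups in mitochondria, was at 4.94 to 6.41 CPM in ns and 6.17 to 7.84 CPM in sen PTEC, a log2 fold change of 0.33 (-0.05 to 0.70), and was higher in 4 of 4 pairs. Sirt6, a chromatin deacetylase, had a log2 fold change of 0.24 (-0.16 to 0.64) and was higher in 4 of 4 pairs. Sirt3, the main mitochondrial deacetylase, was at 6.42 to 13.5 CPM in ns and 7.83 to 9.28 CPM in sen PTEC, higher in the sen culture in 2 pairs and lower in 2, with a log2 fold change of -0.10 (-0.62 to 0.43). The intervals reached past a log2 change of 0.5 downward for Sirt3 and Sirt7 and upward for Sirt5 and Sirt6.

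Replicate 3 stood apart in library composition in both PTEC groups. Genes with a longest transcript under 1500 bases took 13.7% of counts in ns replicate 3, against 7.94% to 8.83% in the other ns cultures, and 9.06% in sen replicate 3, against 6.36% to 6.59% in the other sen cultures. The share was lower in sen than in ns PTEC in 4 of 4 pairs. Sirt7 (43.5 and 32.2 CPM), Nadsyn1, Sirt5 and Sirt6 were highest, and Sirt1 and Cd38 (1.96 and 8.78 CPM) lowest, in replicate 3 of both groups. The same 5 genes were called without ns replicate 3 and without sen replicate 3, and the part of the short-transcript share in the PTEC differences was not tested.

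Among 36 other genes of NAD metabolism, 28 were tested in PTEC, of which 9 fell and 5 rose, against the 19.7% of all genes that fell and 20.1% that rose. With so high a background the counts by role that follow are a description. Their median log2 fold change was -0.31. In de novo synthesis 1 gene was tested (Afmid) and it fell. In salvage and the nicotinic acid route 3 of 6 fell and none rose: Nmrk1, the nicotinamide riboside kinase, at -1.45, Naprt, which starts the nicotinic acid route, at -1.39, and Nmnat2, an adenylyltransferase near 1 CPM, at -1.33 on the log2 scale (edgeR adjusted p = 0.00782, 0.012 and 0.00554). Both NAD kinases fell. Of the carriers, Slc12a8, described as a transporter of nicotinamide mononucleotide, fell by 1.39 (edgeR adjusted p = 0.00411). Of the other NAD consumers 2 fell (Parp1 and Parp2) and 2 rose (Sarm1, under 1 CPM, and Parp3). Parp3, an ADP-ribosyltransferase of DNA repair, rose by 0.80 (edgeR adjusted p = 0.00314). In clearance and breakdown 3 of 5 rose and none fell. Aox1, which oxidises methylated nicotinamide, went from 1.82 to 3.36 CPM in ns to 10.8 to 18.2 CPM in sen PTEC, a log2 fold change of 2.49 (edgeR adjusted p = 7.88e-05). Nnmt, which methylates nicotinamide, rose by 1.56 (edgeR adjusted p = 0.00195), and Nt5e, an ectonucleotidase that fibroblasts also carry, rose by 1.22 (edgeR adjusted p = 0.0176). Proliferation markers, 8 in number, summed to 817 to 1360 CPM in ns and 23.1 to 41.4 CPM in sen PTEC, and how far these genes follow the end of cell division was not tested.

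**Figure D2:**
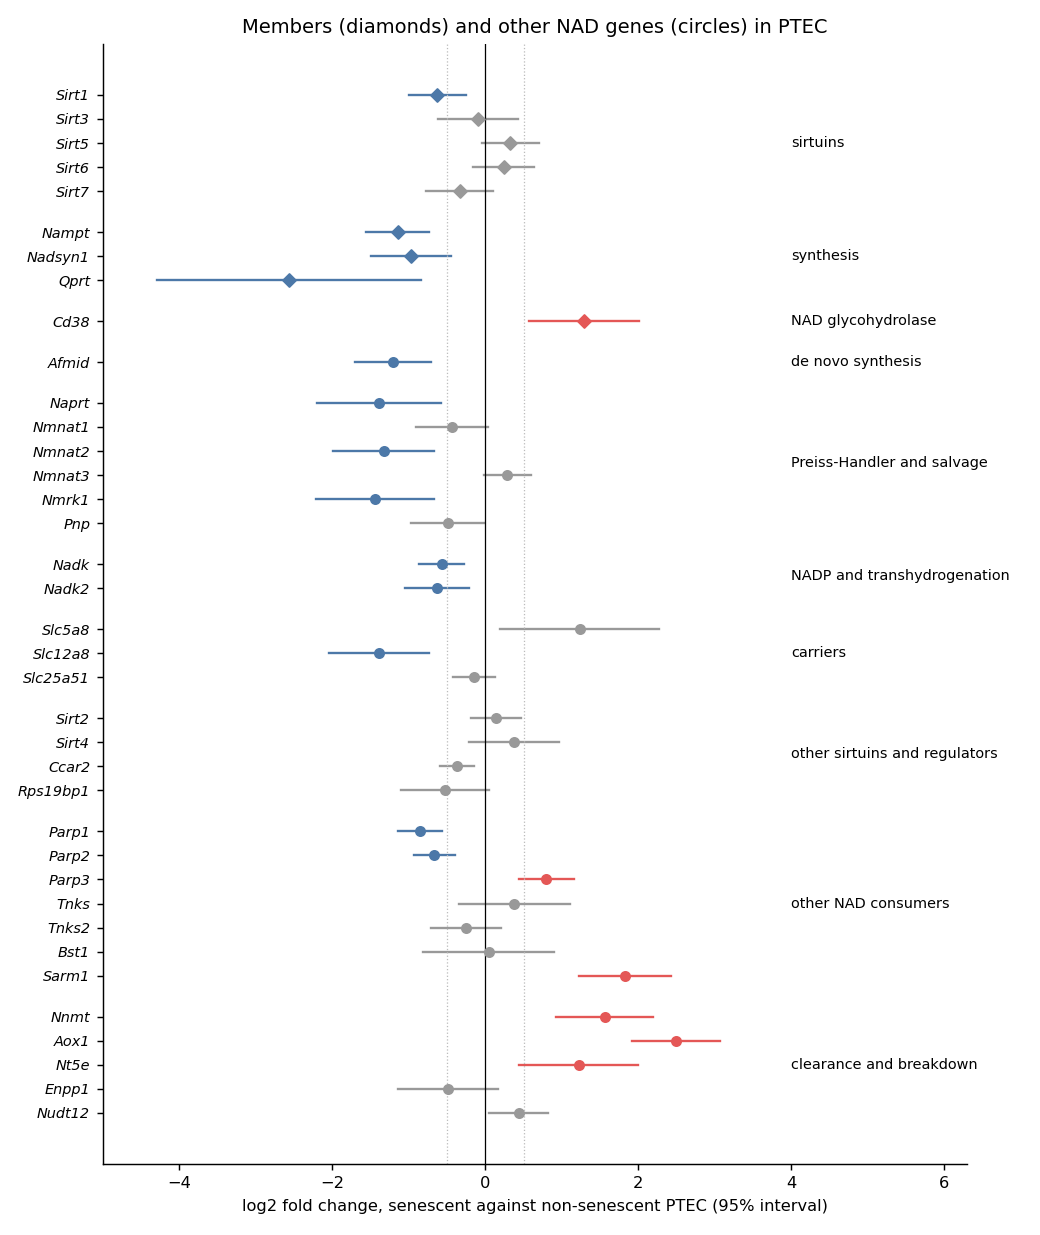
log2 fold changes (horizontal axis) of the 9 tested members (diamonds) and 28 tested other NAD genes (circles) in senescent against non-senescent PTEC, by role, with 95% intervals; blue is down-regulated, red up-regulated, grey not called, and dotted lines mark a log2 fold change of 0.5 in either direction. Nampt, Nadsyn1 and Qprt lie to the left of 0 and Cd38, Nnmt, Aox1 and Nt5e to the right.

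In whole kidney, edgeR fitted on the 9 kidneys without a block called none of the 10 genes in any of the 3 age comparisons. This held against a background of few calls, 2.34% of 17067 genes in 24 against 3 months, 2.58% in 12 against 3 months and 1.33% in 24 against 12 months. At an unadjusted p under 0.05 there were 3, 2 and 6 of the 10 genes, respectively, against 18.2%, 16.5% and 15.2% of all genes. DESeq2 with the study's settings called 0, 1 and 2 of them, where it called 3.45%, 3.69% and 2.59% of genes. The 3-month files hold another gene set (54146 identifiers) than those of 12 and 24 months (55401). In every comparison with 3 months, age and the gene set used for counting therefore cannot be told apart. A fit on the 12- and 24-month kidneys alone, with the replicate number as a block, was added after seeing the data. The numbers name different mice, and the same block over the 9 kidneys called none of the 10 genes. The fit on the 12- and 24-month kidneys called 5 of the 10 genes in 24 against 12 months, where it called 13.2% of all genes. Its adjusted p is given beside each of them as the blocked p, for description only.

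Cd38 was highest at 12 months. It was at 3.36, 3.29 and 4.46 CPM at 3 months, 6.98, 7.76 and 6.07 CPM at 12 months and 4.47, 4.38 and 3.24 CPM at 24 months. Each 12-month kidney was above all kidneys of both other ages, which overlapped. The log2 fold change of 12 against 3 months was 0.89 (SE 0.20, 95% interval 0.43 to 1.35) and just missed the threshold by edgeR (adjusted p = 0.0553) but not by DESeq2 (adjusted p = 0.00293). From 12 to 24 months it was -0.77 (SE 0.20), with an adjusted p of 0.111 by edgeR (blocked p 0.015) and 0.0171 by DESeq2. The 24-month kidneys differed little from the 3-month kidneys (0.12, 95% interval -0.33 to 0.58). The 7 leukocyte markers summed to 72.1 to 84.7 CPM at 3 months, 116 to 121 at 12 months and 122 to 177 at 24 months. The 6 markers of B and plasma cells summed to 2.79 to 8.14, 12.0 to 113 and 19.4 to 129 CPM, and the 5 of T and NK cells to 3.55 to 4.95, 5.04 to 8.85 and 6.85 to 9.76 CPM. Cd79a and Cd3g were called higher in 12 against 3 months and none of these 18 markers was called by edgeR in 24 against 12 months, where 2 had an unadjusted p under 0.05. The 7 macrophage markers summed to 105 to 148, 148 to 190 and 180 to 229 CPM. The 5 endothelial markers, at 163 to 203, 252 to 280 and 155 to 243 CPM, were highest at 12 months like Cd38, with median log2 fold changes of 0.35 in 12 against 3 months and -0.29 in 24 against 12 months, and none of the 5 was called by edgeR in either (1 and 2 had an unadjusted p under 0.05). The part of these cell types in the Cd38 levels of the kidneys was not tested.

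Nadsyn1 was also highest at 12 months, at 36.8, 32.4 and 37.4 CPM. It was at 25.3, 24.0 and 25.3 CPM at 3 months and 25.9, 23.2 and 26.8 CPM at 24 months. The 12-month kidneys did not overlap with the others. Nadsyn1 had a log2 fold change of 0.50 in 12 against 3 months (SE 0.13, edgeR adjusted p = 0.0772). In 24 against 12 months it was -0.47 (SE 0.13, edgeR adjusted p = 0.118). By DESeq2 the adjusted p was 0.0102 and 0.0195, and in the blocked edgeR fit of 24 against 12 months it was 0.016. The log2 fold changes there (0.49, -0.47 and -0.47) lay within the threshold of 0.5, so Nadsyn1 was not called.

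Nampt was at 179, 172 and 235 CPM at 3 months, 235, 270 and 225 CPM at 12 months and 143, 183 and 168 CPM at 24 months. The 12- and 24-month groups did not overlap, whereas the 3-month group overlapped with both. For Nampt the log2 fold change was 0.30 in 12 against 3 months (-0.08 to 0.68) and -0.55 in 24 against 12 months (SE 0.17, edgeR adjusted p = 0.162, blocked p 0.012). NAMPT transcription is known to follow the circadian clock. Of 14 clock genes, 2 were called in 12 against 3 months, Arntl lower and Dbp higher (2.58% of all genes were), and 7 had groups that did not overlap (20.3% of all genes). Arntl (BMAL1) was at 1.79 to 2.44 CPM, against 7.92 to 14.0 CPM at 3 months and 4.58 to 12.1 CPM at 24 months, and Dbp was at 136 to 206 CPM, against 31.1 to 61.7 and 47.1 to 108 CPM. None of the 14 was called by edgeR in 24 against 12 months, where 7 had an unadjusted p under 0.05 (15.2% of all genes) and 7 had groups that did not overlap (25.6% of all genes). The hour of collection is not given in the sources used here, and its part in the 12-month values of Nampt, Nadsyn1 and Cd38 was not tested. The 12-month kidneys also had the lowest sum of 8 immediate early and heat shock genes, which can respond to handling of the tissue. The sum was 69.2 to 228 CPM at 3 months, 37.9 to 46.3 CPM at 12 months and 107 to 1024 CPM at 24 months, with Hspa1a and Hspa1b called lower in 12 against 3 months and Fos higher in 24 against 12 months. The 8 proliferation markers summed to 9.76 to 11.2, 6.64 to 8.31 and 22.0 to 52.8 CPM at 3, 12 and 24 months, and 4 of them were called higher in 24 against 12 months. The part of either group in the values of the 10 genes was not tested.

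Haao was the highest of the 10 genes per length in kidney at every age. It was at 384, 376 and 449 CPM at 3 months, 424, 514 and 424 CPM at 12 months and 275, 322 and 316 CPM at 24 months. The 24-month kidneys were below all others. For Haao the log2 fold change was -0.41 in 24 against 3 months (SE 0.14, edgeR adjusted p = 0.194) and -0.56 in 24 against 12 months (SE 0.15, adjusted p = 0.108 by edgeR, 0.0118 in the blocked fit and 0.00724 by DESeq2). The files of the 3-month kidneys carry an earlier version of the Haao gene model than those of 12 and 24 months, and its part in the comparisons with 3 months was not tested. The comparison of 24 with 12 months has the same version on both sides.

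Sirt3 was at 132, 105 and 153 CPM at 3 months, 126, 175 and 113 CPM at 12 months and 72.7, 102 and 84.8 CPM at 24 months. The 24-month kidneys lay below all others, by a narrow margin to one 3-month kidney. The log2 fold change was -0.59 in 24 against 3 months (SE 0.22, edgeR adjusted p = 0.206) and -0.65 in 24 against 12 months (SE 0.22, edgeR adjusted p = 0.196, blocked p 0.00779). Sirt3 shares 418 exonic bases with Ric8a and 342 with Psmd13 on the opposite strand, and whether the counting used the strand is not given in the sources used here.

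Qprt, the next enzyme after Haao in the pathway, was at 93.5, 120 and 86.9 CPM at 3 months, 139, 102 and 145 CPM at 12 months and 153, 123 and 158 CPM at 24 months, and the 24-month kidneys were above all 3-month kidneys. The log2 fold change of 24 against 3 months was 0.53 (SE 0.20, 95% interval 0.09 to 0.98, edgeR adjusted p = 0.208). Of the 12 proximal tubule markers 3 were called higher in 24 against 3 months (Slc5a2, Slc5a12 and Miox), where 2.34% of all genes were called. Groups did not overlap for 5 of the 12, against 22.0% of all genes. The median log2 fold change of the 12 markers was 0.45, and their part in the Qprt difference was not tested. Sirt7 was at 36.9 to 45.4 CPM at 24 months and 51.8 to 73.5 CPM at 12 months, a log2 fold change of -0.57 (edgeR adjusted p = 0.286, blocked p 0.00933). Sirt1, Sirt5 and Sirt6 overlapped between all ages, with 95% intervals that reached at most 0.95 from 0 on the log2 scale in 24 against 12 months.

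**Figure D3:**
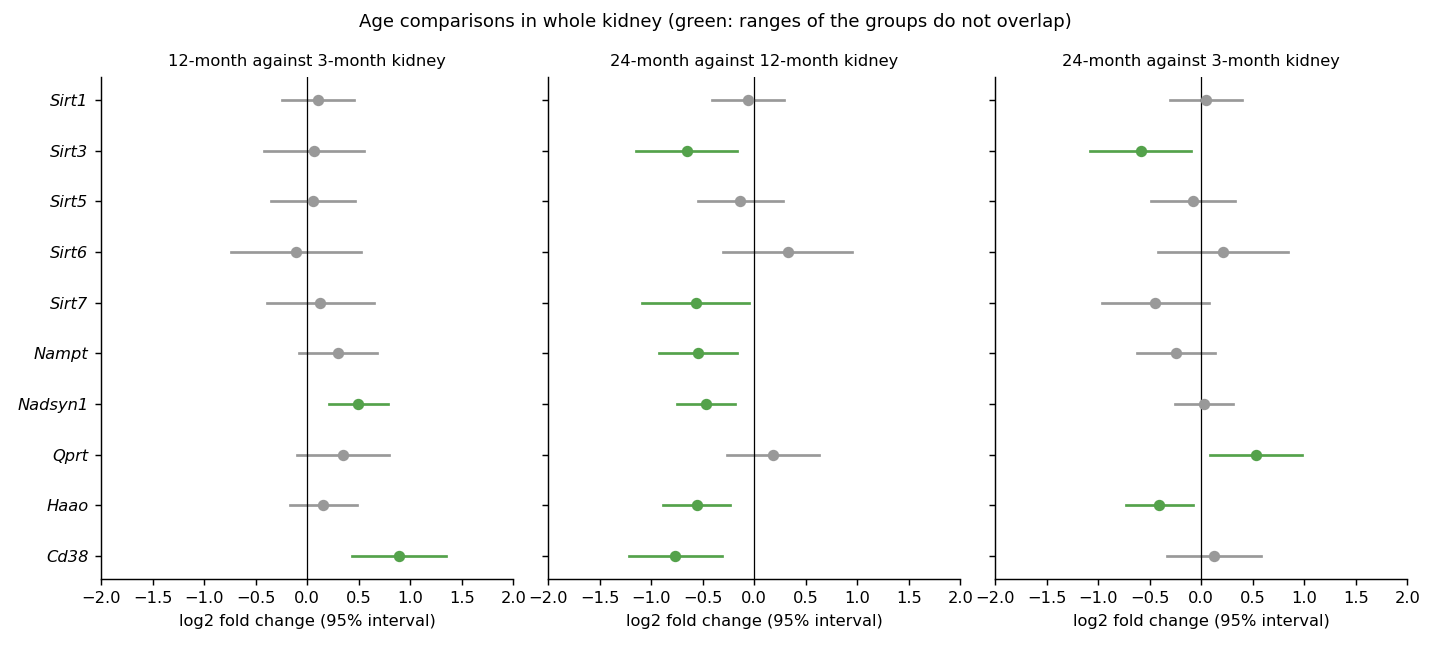
log2 fold changes of the 10 genes (rows) with 95% intervals in the 3 age comparisons of whole kidney; green marks genes whose groups do not overlap. The groups did not overlap for 2 genes in 12 against 3 months, 6 in 24 against 12 months and 3 in 24 against 3 months, where 20.3%, 25.6% and 22.0% of all genes did so.

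Kidneys of the same age differed among themselves in a way that several of these genes shared. In each age the same kidney (3-month replicate 3, 12-month replicate 2 and 24-month replicate 2) was highest for Sirt3, Sirt7, Nampt and Haao and lowest for Qprt and Sirt6. These 3 libraries also had the largest share of counts from genes with a longest transcript under 1500 bases in their age, 23.8%, 22.4% and 17.6%, against 13.9% to 19.8% in the other 6 kidneys. That share was 13.9% to 17.6% at 24 months, 15.0% to 23.8% at 3 months and 16.2% to 22.4% at 12 months, and its part in the lower Sirt3 and Haao levels at 24 months was not tested. Without these 3 kidneys, a choice made after seeing the data, the log2 fold changes of 24 against 3 months were -0.59 for Sirt3, -0.36 for Haao and 0.54 for Qprt, and none of the 10 genes was called in any age comparison.

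**Figure D4:**
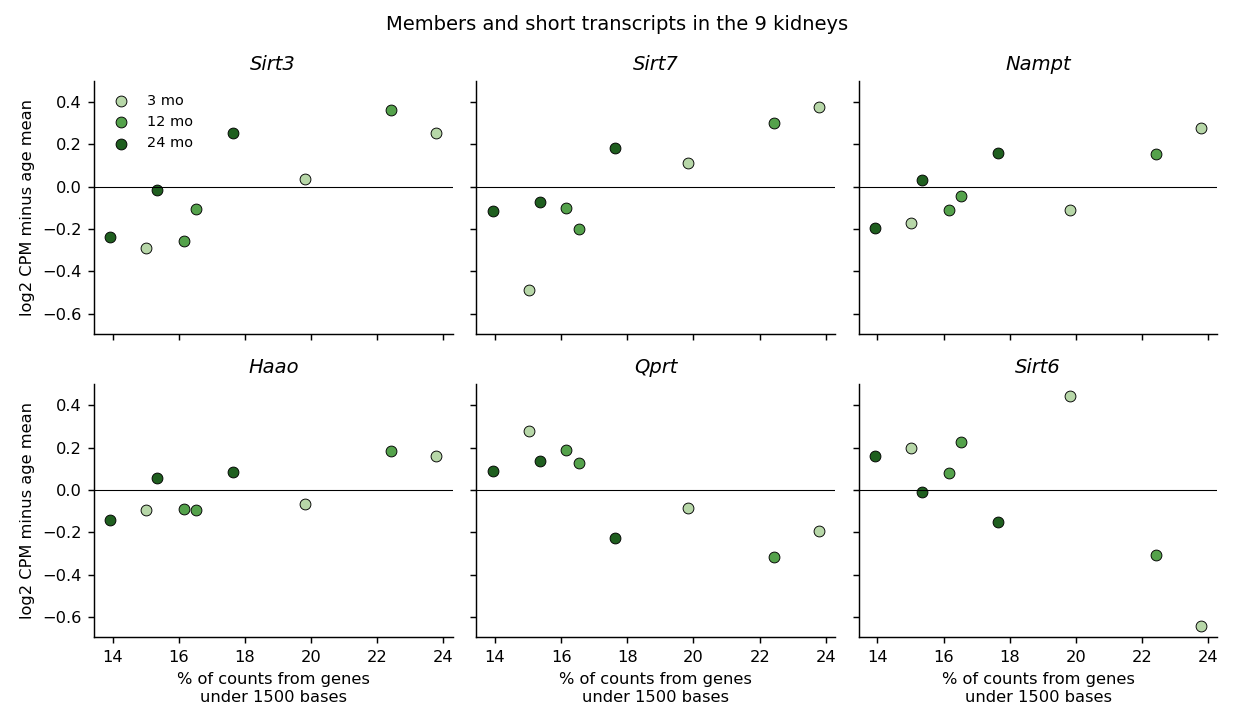
Deviation of 6 members from their age mean (vertical axis, log2 CPM) against the share of counts from genes with a longest transcript under 1500 bases (horizontal axis, percent) in the 9 kidneys, coloured by age. In each age the kidney with the largest share is the highest for Sirt3, Sirt7, Nampt and Haao and the lowest for Qprt and Sirt6.

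Same-numbered kidneys of 12 and 24 months had correlations of deviations from the group mean across genes of 0.38, 0.56 and 0.17. Replicates 1 and 3 also went together across numbers. The correlation was 0.27 for 24-month replicate 1 with 12-month replicate 3, and 0.19 for 24-month replicate 3 with 12-month replicate 1. Replicate 2 of either age with another number gave negative values. The numbers name different mice, and replicate 2 is the kidney that stands apart at both ages. With these 6 kidneys alone and the replicate number as a block, also added after seeing the data, Sirt3, Sirt7, Nampt, Haao and Cd38 were called lower at 24 than at 12 months (edgeR adjusted p from 0.00779 to 0.015), where 13.2% of 16686 genes were called. With the 9 kidneys and the same block none of the 10 genes was called.

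Over the 9 kidneys, the genes whose log2 CPM were most like Haao, out of 8760 with a mean of at least 10 CPM, were 0610006L08Rik (Pearson r = 0.99), Trub2 (0.979) and Lias (0.979). For Sirt3 they were Mrps9, Uckl1 and Txn1 (0.989 to 0.99), and for Qprt they were Mia3, Myo7a and Rgs12 (0.985 to 0.991). The points share the library differences described above, and these values are a description only. Of the 36 other NAD genes, 32 were tested in kidney and 1 was called, namely Parp3 in 24 against 3 months, which is near the 2.34% of all genes called there. It was at 21.4, 23.3 and 21.0 CPM at 3 months and 40.2, 39.5 and 39.6 CPM at 24 months, with no overlap and a log2 fold change of 0.86 (SE 0.13, edgeR adjusted p = 0.0132). With any one of the 6 kidneys left out the Parp3 fold change stayed at 0.83 to 0.92 on the log2 scale, and the edgeR adjusted p was 0.0164 to 0.085, above 0.05 without 24-month replicate 1 (0.0532), 24-month replicate 3 (0.0505) or 3-month replicate 1 (0.085). With the replicate block over the 9 kidneys 0 of the other NAD genes were called.

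More of the 10 genes were called between culture and tissue than in any comparison above. With TMM, the fold changes of Cd38, Nampt and Sirt1 were nonetheless larger in size between sen and ns PTEC. In ns PTEC against 3-month kidney, 9 of the 10 genes were called, 7 lower and 2 higher in culture, where 67.5% of 17999 genes were called, 35.5% lower and 32.0% higher. All 10 genes carry the same identifier version in the culture and the 3-month kidney files. Scaling by total counts instead of TMM moved the median of all genes by 0.60 on the log2 scale. With that scaling Sirt7 and Nampt were no longer called, and the log2 fold changes were 1.19 for Sirt1, 1.69 for Sirt6, -0.62 for Sirt5 and -0.73 for Nadsyn1, still called, and 0.69 for Cd38 (edgeR adjusted p = 0.0537), not called.

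Genes listed with the de novo route were lower in culture, as were markers of kidney tubule segments. All 12 proximal tubule markers were called lower in culture, with a median log2 fold change of -8.85, as were the 6 of distal tubule and collecting duct (-10.8), and the part of tubule cell identity in the values that follow was not tested. Haao had 6 counts in the 4 ns cultures together and 42997 in the 3 kidneys, a ratio of CPM of 9769 (95% interval 4488 to 26621, which covers counting error only). Qprt was 4.84 lower on the log2 scale (a log2 fold change of -4.84, SE 0.58). Of the 7 other genes listed with the de novo route 5 were tested, and all 5 were lower in culture (median log2 fold change -9.40). Kmo and Ido2 had 1 and 2 counts in the 4 ns cultures, and in kidney 16501 and 1322. Acmsd, which acts on a branch of the route and not in NAD synthesis itself, had 23 counts in culture and 11676 in kidney. The nicotinic acid carrier Slc22a13 had 8 counts in culture and 18947 in kidney.

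Sirt3 was at 6.42 to 13.5 CPM in ns PTEC against 105 to 153 CPM in kidney, a log2 fold change of -3.77 (SE 0.25, edgeR adjusted p = 7.29e-10). Sirt5 and Nadsyn1 were lower in culture by less, with log2 fold changes of -1.22 and -1.33. Nampt and Sirt7 had log2 fold changes of -0.91 and -0.72, which became -0.30 and -0.12 with total counts, and Sirt7 was also lost without 3-month replicate 3 (-0.47). Sirt6 was 9.76 to 14.3 CPM in culture and 3.23 to 6.87 CPM in kidney, a log2 fold change of 1.09 (SE 0.24, edgeR adjusted p = 0.000758). Sirt1 was higher in culture with a log2 fold change of 0.58 (SE 0.17, edgeR adjusted p = 0.00682), a call lost without ns replicate 1 (0.49). Cd38 did not pass with TMM (0.08, 95% interval -0.55 to 0.71).

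Among the other NAD genes 11 were higher and 16 lower in culture out of 33 tested, where 32.0% of all genes were higher and 35.5% lower. Among those with a mean of at least 1 CPM, the largest rises were Bst1, a CD38 homologue, at 2.80, Slc12a8 at 2.72, Nnmt at 2.12 and Aox1 at 1.72 on the log2 scale (edgeR adjusted p of 0.00159 or less).

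Over the 5 groups, the order of levels differed between genes. Sirt3, Qprt and Haao were higher in every kidney than in every culture, as was Nadsyn1, and Sirt6 was higher in every culture than in every kidney, all 5 both with TMM and with total counts. Sirt5 and Nampt were higher in every kidney with TMM only. With total counts Nampt reached 156 CPM in culture and went down to 118 CPM in kidney, and Sirt5 reached 10.4 CPM in culture and went down to 9.07 CPM in kidney. Sirt1 had neighbouring groups that all overlapped with TMM, and was higher in every culture than in every kidney with total counts. Cd38 and Sirt6 had their highest mean in sen PTEC, Cd38 without overlap with the 12-month kidneys that came next and Sirt6 with overlap with ns PTEC. Per kilobase of exon, Nampt led in ns PTEC (20.6 CPM per kb) and in sen PTEC (9.14), without overlap with Sirt7, the next gene. In 3-month kidney the order was Haao (86.2 CPM per kb), Nampt (38.6), Qprt (37.9) and Sirt3 (21.8), of which Nampt and Qprt overlapped. At 24 months Qprt (54.8) overlapped with Haao (65.0) at the top and stood above Nampt (32.6). Cd38 was the lowest in 3- and 24-month kidney, at 0.952 and 1.04 CPM per kb.

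**Figure D5:**
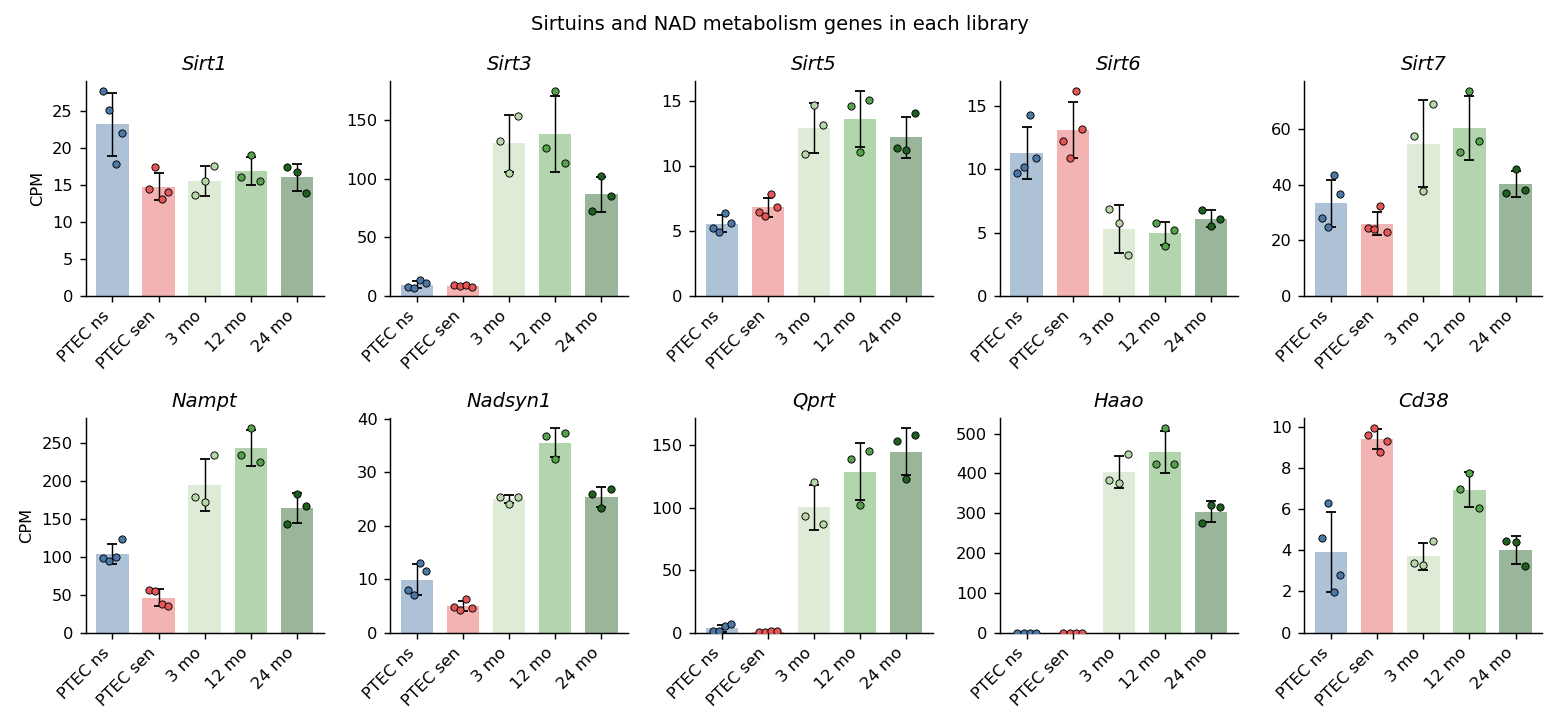
Level (CPM, linear axes from 0, a scale for each gene) of the 10 genes in each library (points) with group means (bars) and SD (error bars) for ns PTEC, sen PTEC and kidneys of 3, 12 and 24 months (mo). Haao, Qprt and Sirt3 are near the base of the axis in both PTEC groups, Nampt and Nadsyn1 step down from ns to sen PTEC, and Cd38 is highest in sen PTEC.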

How the data were processed

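The deposited files have no header and hold raw read counts per Ensembl gene, whole numbers, for 1 library each. Per the labels, RNA was made into libraries with a directional kit and the authors aligned to GRCm38; whether the counting used the strand is not given in the sources used here. The gene sets differ between PTEC, 3-month kidneys and older kidneys, so each fit used the identifiers its libraries share. The 10 genes, the 36 other NAD genes and the markers were chosen with earlier results of these data known. Counts were tested with edgeR 4.0.16 (TMM, filterByExpr, quasi-likelihood), the 8 PTEC libraries in one fit, the 9 kidneys in one, and all 17 for culture against kidney. Levels are CPM, and lengths are exonic bases of GENCODE annotation. The test was checked on simulated data. Alternatives were DESeq2 1.42.0 with the study's settings, other scaling, no filter, other fold thresholds, each replicate left out, the replicate block and compared groups alone. Same-numbered PTEC cultures had correlations of deviations of 0.28, 0.38, 0.61 and 0.19. Other combinations gave -0.49 to 0.26, the highest for sen replicate 1 with ns replicate 2. Cultures of the same number are taken as pairs where pairs are counted, although the labels state no pairing, and the main test had no block. All 10 genes are named. Other NAD genes are named where at most 8 were called, else the 4 largest rises and falls with a mean of at least 1 CPM; those named beyond this, such as Parp1, Parp2 and Afmid, were chosen after their values were seen. Nnt had 2 identifiers and was left out.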

Additional observations from a re-analysis of the deposited data

Results flagged for a closer look

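In groups of 4 cultures, 1 culture was far from the others for 3 of the 20 gene and group combinations examined, where chance alone gives about 1 in 20. Sirt7 was at 32.2 CPM in sen replicate 3, with the next culture at 24.5 CPM, and this library also had the largest share of counts from short transcripts among the sen cultures (9.06%). Nampt was at 124 CPM in ns replicate 4, with the next at 99.1 CPM. Haao was at 0.052 CPM in sen replicate 2, which is 2 counts, and had 0 counts in the other sen cultures. A lone culture with counts meets this measure by construction, so the chance rate does not apply to Haao.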

How the results depend on the processing

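The count of called genes in PTEC was 3 with a log2 threshold of 1 and 4 to 5 with any one culture left out. In 12 against 3 months it was 1 with DESeq2, and in 24 against 12 months it was 2 with DESeq2 and 5 with the 6 kidneys alone and the replicate block. It was 0 in all 3 age comparisons with any one kidney left out. With the replicate block the count stayed at 5 in PTEC, 9 in culture against kidney and 0 in each age comparison of the 9 kidneys. In 24 against 3 months the same-numbered kidneys had correlations of -0.03, -0.42 and -0.22, and in 12 against 3 months of -0.05, -0.70 and -0.61, so they share only a number there. Over all genes, calls in 24 against 12 months numbered 227 by edgeR, 779 by DESeq2, 0 with the block over 9 kidneys and 2200 with the block over 6; in 24 against 3 months they were 399, 1035 and 126, and in 12 against 3 months 441, 1107 and 118. With one library left out they were 1 to 63 in 24 against 12 months, 74 to 794 in 24 against 3 months and 52 to 716 in 12 against 3 months.

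Uncalled fold changes near 0 changed sign with single libraries left out, and the cause was not tested. The log2 ranges were -0.24 to 0.30 for Cd38 in culture against kidney and -0.25 to 0.12 for Sirt3 in PTEC. In 24 against 3 months they were -0.025 to 0.097 for Nadsyn1, -0.037 to 0.14 for Sirt1, -0.20 to 0.033 for Sirt5 and -0.051 to 0.44 for Sirt6. In 12 against 3 months they were -0.13 to 0.19 for Sirt3, -0.050 to 0.19 for Sirt5, -0.38 to 0.12 for Sirt6 and -0.077 to 0.32 for Sirt7, and in 24 against 12 months -0.12 to 0.030 for Sirt1. Leaving out the 3 kidneys that stand apart gave 0.0048 for Sirt1 in 24 against 12 months and -0.0063 for Sirt3 in 12 against 3 months. Parp3 was the 1 called NAD gene in 24 against 3 months, and this count was 0 with the replicate block and 0 to 2 with one kidney left out.

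Haao and Qprt had low counts in culture, at most 3 and 227 per library, which limits the precision of their values there. Kidneys were sequenced more deeply with age, and 3 mice per age limit the precision of every kidney value. Irradiation and days in culture cannot be told apart.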
